A study of Mus musculus with 10 samples.

Results

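Solute carriers of bone vessels were followed across 10 single-cell RNA sequencing libraries of mouse bone endothelial cells. Solute carriers are the genes whose symbol is Slc, a family number, the letter a and a member number, and the gene tables held 308 such symbols among 26504 genes. Members were the solute carriers with at least 500 unique molecular identifiers (UMIs, the count of captured transcript molecules) summed over all 10 libraries, apart from Slc2a1 and Slc16a3, which were set aside by name. This left 162 members in 43 families, which together held 0.658% of all UMIs, and 144 solute carriers fell below the limit. The members were chosen by their total UMIs, which are given as a description: just inside the limit stood Slc26a6 with 512 and Slc6a13 with 528 UMIs, and just outside it Slc22a21 with 495 and Slc16a4 with 493.

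All mice were C57BL/6 animals carrying Cdh5-mTnG, a reporter that the vascular cadherin gene Cdh5 drives in endothelial cells, giving a green nucleus and a red membrane. The 5 groups were juvenile mice of 3 weeks and both sexes, adult females of 12 weeks, aged females of 75 weeks, and females of 12 weeks that had received either parathyroid hormone (PTH), an agent that builds bone, or alendronate, a bisphosphonate that slows its resorption. Each group had 2 libraries, and each was sorted from femur and tibia of pooled animals after blood lineages were depleted. Because the animals were pooled, p-values measure the spread between libraries, which may be technical.

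Solute carriers are membrane proteins that move amino acids, sugars, ions, metals, vitamins, nucleosides and lipids across the cell surface and across the membranes of mitochondria, the Golgi and lysosomes. Vessel walls use them to feed their own metabolism and to pass nutrients and hormones to the tissue behind them. In bone, wide marrow sinusoids, capillaries of the metaphysis (type H), arteries and the capillaries downstream of arteries at remodelling sites (type R) carry blood of different oxygen content to marrow and bone-forming cells.

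By role, the 37 mitochondrial carriers (the Slc25 family) held 29.5% of the members' UMIs and the 26 amino acid and peptide transporters 24.5%. Roles were given by family, so Slc43a3, which carries purine nucleobases, is counted with the amino acid carriers throughout, with 49782 of their 319467 UMIs. The 23 carriers of metal ions and haem held 17.7%, the 24 carriers of inorganic ions 7.54%, the 16 carriers of sugars and monocarboxylates 5.87% and the 3 nucleoside carriers 5.86%. The 23 carriers of vitamins, organic ions, choline and lipids held 5.85%, and the 10 Golgi and endoplasmic reticulum carriers 3.22%. These sums depend on how many genes a role holds and on how well the 3′ end of each was captured, so they describe the counts and do not rank the genes by level.

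RefSeq promoter windows of build GRCm38.p6, from 250 bases before to 50 after the start of the gene, matched 121 of the 162 members. A set of 3 is shown, since these genes lead the lists of the sinusoidal, arterial and type R cells described below, with the letters GGAA or their reverse complement TTCC, the core bound by ETS factors, in capitals.
Slc16a9, chr10:70245026-70245325, plus strand: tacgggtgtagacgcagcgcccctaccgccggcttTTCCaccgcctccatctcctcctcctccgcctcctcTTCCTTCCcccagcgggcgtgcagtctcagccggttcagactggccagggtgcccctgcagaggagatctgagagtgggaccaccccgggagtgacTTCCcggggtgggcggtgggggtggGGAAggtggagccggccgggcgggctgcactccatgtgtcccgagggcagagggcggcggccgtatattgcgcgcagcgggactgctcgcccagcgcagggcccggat
Slc22a4, chr11:54028055-54028354, minus strand: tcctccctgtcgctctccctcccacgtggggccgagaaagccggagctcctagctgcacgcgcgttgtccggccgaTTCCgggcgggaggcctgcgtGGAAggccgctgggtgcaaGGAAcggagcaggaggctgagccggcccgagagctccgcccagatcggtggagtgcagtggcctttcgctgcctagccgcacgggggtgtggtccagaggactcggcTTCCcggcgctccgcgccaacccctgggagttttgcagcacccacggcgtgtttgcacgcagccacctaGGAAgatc
Slc28a2, chr2:122426185-122426484, plus strand: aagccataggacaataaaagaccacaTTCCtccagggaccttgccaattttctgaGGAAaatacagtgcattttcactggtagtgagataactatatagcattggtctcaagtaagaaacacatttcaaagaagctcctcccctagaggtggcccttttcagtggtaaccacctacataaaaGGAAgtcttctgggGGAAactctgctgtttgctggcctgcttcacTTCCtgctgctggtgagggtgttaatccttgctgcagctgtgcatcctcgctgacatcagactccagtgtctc
Each window held 5 such matches on either strand, against a median of 3 over 32851 RefSeq promoter windows of the same length, of which 96.0% held at least 1. The letters are a description of the windows and no evidence of binding. Guanine and cytosine made up 70.7% of the Slc16a9 window, 69.0% of the Slc22a4 window and 46.7% of the Slc28a2 window.

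The libraries held 10653583 to 28419323 UMIs, and 2163 to 7496 cells of each passed as endothelial (500 to 6000 genes, under 25% mitochondrial UMIs and at least 2 UMIs of Cdh5, Pecam1, Egfl7 and Kdr together), 45070 cells in all. Cells were named from marker scores that used no solute carrier as bmEC-like (marrow sinusoid, 16288 cells), mpEC-like (metaphysis, 6731), aEC-like (artery, 5557), rEC-like (type R, 3818) or pEC-like (proliferating, 629). The markers were highest in the named type for 12 of 12, 11 of 12, 12 of 12, 10 of 10 and 9 of 9 genes respectively, which is no independent check, since the scores used them. Of the cells so named that lay in a named cluster of cells, 98.9% of bmEC-like, 79.5% of mpEC-like, 97.9% of aEC-like, 94.5% of rEC-like and 89.2% of pEC-like cells had the same name by cluster, the lowest share being that of the mpEC-like cells. Another 9123 cells were left unnamed and 2924 carried markers of other cell types, and 17.0% of the endothelial cells lay near the threshold of a type. The mix of types differed between the groups. Of the named cells, rEC-like cells made up 1.89% and 1.62% in the juvenile, 7.60% and 7.54% in the adult, 23.7% and 23.8% in the aged, 6.50% and 9.87% in the PTH and 19.2% and 19.8% in the alendronate libraries. The aged libraries stood apart, with a median of 2.37% and 2.49% mitochondrial UMIs per cell against 1.16% to 1.43% elsewhere, and with 1 to 4 cell barcodes shared with any other library against 8 to 74 among the rest. How the libraries were made and the age of the mice cannot be told apart.

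More solute carriers were called in arterial (43) and in sinusoidal cells (42) than in the other vessel types. UMIs were summed per library and type, and each type was tested against the mean of the other types with edgeR's quasi-likelihood test and Benjamini-Hochberg adjustment over all 11600 genes, with library as a block. A member was called at an adjusted p under 0.05 and a difference above 1 on the log2 scale, and 156 of the 162 members had enough UMIs to be tested. In bmEC-like cells 25 members (16.0%) were called higher and 17 (10.9%) lower, against 7.97% and 8.86% of all genes. In aEC-like cells 17 (10.9%) were higher and 26 (16.7%) lower, against 6.96% and 8.59%. The shares in rEC-like cells, 10 (6.41%) higher and 20 (12.8%) lower against 6.74% and 6.69%, and in mpEC-like cells, 3 (1.92%) higher and 11 (7.05%) lower against 3.57% and 4.64%, held fewer called higher. Median log2 differences of the members ran from -0.14 to 0.09 over the 5 types, and those of all genes from -0.08 to -0.02. Of the tested members, 42 were called higher in exactly 1 type, 13 in 2 types and 100 in no type. The 12 members called in no type and in no comparison of groups over all cells included 5 mitochondrial carriers, Slc25a12, Slc25a26, Slc25a38, Slc25a42 and Slc25a44.

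Sinusoidal cells led in 5 carriers named by the rule, Slc16a9, Slc7a2, Slc9a9, Slc27a1 and Slc16a1, but not in every carrier of the same substrates: among carriers picked after their values were seen, the arginine carrier Slc7a1 was lower in them (-0.76 on the log2 scale, under the limit for a call), the fatty acid carrier Slc27a3 was called lower (-2.0) and Slc7a7 differed by 0.10. Levels are given as CPM, the gene's share of all UMIs of the type scaled to a fixed library total, for the lowest, median and highest library. The scaling is that of each fit, so the level of a library here and within its own type further on can differ slightly. Slc16a1, the lactate and pyruvate carrier MCT1, stood at 69.6, 109 and 126 CPM in bmEC-like cells, and its highest library in any other type was 96.8 CPM, in pEC-like cells. Slc7a2, which brings in arginine, stood at 35.4, 46.7 and 164 CPM in bmEC-like and 3.36, 7.26 and 26.8 CPM in mpEC-like cells. In both genes bmEC-like cells were the highest type in all 10 libraries. The differences were 3.02 ± 0.10 (log2, SE) for Slc16a1 and 3.62 ± 0.12 for Slc7a2 (edgeR adjusted p = 8.89e-30 and 1.57e-30). Slc16a9, of the same monocarboxylate family as Slc16a1, was higher by 4.04, Slc9a9, an endosomal sodium-proton exchanger, by 3.15 and Slc27a1, a fatty acid transport protein, by 3.09. Each was again highest in bmEC-like cells of all 10 libraries, with 16.3 to 55.5 CPM for Slc16a9, 19.6 to 28.0 for Slc9a9 and 19.2 to 28.3 for Slc27a1. Exons of Slc16a9 and Slc7a2 overlap genes of the opposite strand, and the sources used here do not state whether counting used the strand.

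Slc39a8, the zinc and manganese importer ZIP8, stood at 91.2, 159 and 215 CPM in bmEC-like, 26.0, 55.9 and 107 in mpEC-like, 4.0, 13.4 and 32.3 in rEC-like and 1.41, 10.5 and 21.9 in aEC-like cells. Sinusoidal cells were the highest and arterial or type R cells the lowest of these 4 types, with a difference of 2.71 ± 0.09 for bmEC-like and -2.47 ± 0.16 for aEC-like cells (edgeR adjusted p = 6.62e-31 and 5.04e-19). Medians of aEC-like and rEC-like cells lay within each other's range. A further 2 metal carriers, picked after their values were seen, were called higher in bmEC-like cells: Slc31a1, the copper importer CTR1, by 2.10 and Slc40a1, the iron exporter ferroportin, by 1.58. Ferroportin was also called in mpEC-like cells, by 1.24. In all, of the 22 metal carriers tested 4 were called higher and 1 lower in bmEC-like cells, against 7.97% and 8.86% of all genes. In both aEC-like and rEC-like cells 1 was higher and 3 lower. The shares of all genes there were 6.96% and 8.59% in aEC-like and 6.74% and 6.69% in rEC-like cells.

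In mpEC-like cells only 3 members were called higher. The rule for naming genes took Slc43a2, a carrier of large neutral amino acids, which stood at 31.3, 39.7 and 49.4 CPM there and was higher by 1.12 ± 0.09 than the mean of the other types (edgeR adjusted p = 1.98e-14). Its level was below that of bmEC-like cells, 56.8, 64.8 and 98.3 CPM, in every library, so the call rests on its low level in arterial, type R and proliferating cells. Without the deepest 5% of cells the difference was 0.99, under the limit of 1. The other 2 were ferroportin and Slc7a8, an amino acid exchanger, and both were called higher in bmEC-like cells too. Exons of Slc43a2 overlap a gene on the opposite strand.

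The rule named Slc22a4, Slc45a4, Slc12a8, Slc27a3 and Slc26a10 for arterial cells, which were the highest type for the first 4 of them in all 10 libraries but not for Slc26a10. Other members of these families went otherwise, since Slc27a1 led in sinusoidal cells and Slc22a5, a carnitine carrier picked after its values were seen, was called higher in bmEC-like cells (1.34) and differed by 0.22 in aEC-like cells. Slc22a4, the ergothioneine and carnitine carrier OCTN1, stood at 12.0, 25.5 and 35.3 CPM in aEC-like cells and never above 0.937 CPM in bmEC-like or mpEC-like or 1.55 CPM in rEC-like cells. Slc27a3, a fatty acid transport protein with acyl-CoA synthetase activity, stood at 110, 149 and 230 CPM in aEC-like and 12.9, 45.5 and 83.1 CPM in rEC-like cells. The type R cells thus held the second place for Slc27a3 and did not overlap the arterial range. The differences were 5.37 ± 0.18 for Slc22a4 and 3.70 ± 0.09 for Slc27a3 (edgeR adjusted p = 5.25e-30 and 1.63e-35). Slc45a4, of a sugar carrier family, was higher by 3.98, with 23.4 to 94.0 CPM, and Slc12a8, of the cation-chloride cotransporter family, by 3.92, with 16.0 to 36.9 CPM. Of the 22 inorganic ion carriers tested 6 were called higher in aEC-like cells and 2 lower, and of the 25 amino acid carriers 2 and 7. The shares of all genes called there were 6.96% and 8.59%. Slc6a6, the taurine carrier, picked after its values were seen, stood at 1010, 1220 and 2090 CPM in aEC-like cells and at 58.6, 68.2 and 103 in bmEC-like cells. The other types lay between: scaled within each type, its adult means were 1240 CPM in aEC-like, 401 in rEC-like, 375 in mpEC-like and 58.1 in bmEC-like cells. Exons of Slc6a6 overlap a gene of the opposite strand.

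Type R cells were marked by Slc28a2, the sodium-coupled purine nucleoside carrier CNT2. It stood at 37.0, 153 and 259 CPM in rEC-like cells, while its highest library reached 12.4 CPM in pEC-like, 12.1 in mpEC-like, 5.93 in aEC-like and 2.21 in bmEC-like cells. No other type overlapped the rEC-like range, and the difference was 5.35 ± 0.12 (edgeR adjusted p = 2.43e-37). Thinned to 1000 UMIs per cell, 12.6% ± 8.55 (SD, n = 10 libraries) of the rEC-like cells held a Slc28a2 UMI, against 0.523% of mpEC-like, 0.288% of aEC-like and 0.0881% of bmEC-like cells, and against 2.58% of haematopoietic cells of the same libraries. Thinned to 2000 UMIs, with shallower cells left out, the shares were 19.2% ± 12.0 in rEC-like and 5.34% in haematopoietic cells. The unthinned medians were 2534 UMIs per rEC-like and 6448 per haematopoietic cell. The other nucleoside carriers went otherwise: Slc29a1, the equilibrative carrier ENT1, was called lower in rEC-like cells, by 1.33 below the mean of the others (-1.33 ± 0.10).

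Slc26a10, of an anion exchanger family, was called in both type R and arterial cells. It stood at 59.6, 148 and 243 CPM in rEC-like and 77.8, 108 and 185 CPM in aEC-like cells, against at most 19.2 CPM in mpEC-like and 5.0 CPM in bmEC-like cells. Type R cells were the highest type in 9 libraries and arterial cells in 1, and the ranges overlapped. It was called in both, by 3.97 ± 0.17 and 3.58 ± 0.16 (edgeR adjusted p = 1.91e-25 and 4.1e-25). Its exons overlap B4galnt1 on the opposite strand. The steroid sulphate carrier Slc10a6 was higher in rEC-like cells by 2.13, with 10.3, 17.5 and 97.0 CPM, the last from 15 UMIs of juvenile replicate 1. Its mean in bmEC-like cells was 14.0 CPM, and the ranges overlapped. In juvenile replicate 2 it stood at 31.2 CPM in bmEC-like and 22.2 CPM in rEC-like cells. The glutamine carrier Slc1a5 was higher in rEC-like cells by 1.23, with 45.3, 68.0 and 85.3 CPM, and its thinned share of cells was 5.36% in rEC-like, 4.70% in bmEC-like and 14.0% in haematopoietic cells, so its share in endothelial cells lies below that of the haematopoietic cells. At 2000 UMIs these shares were 11.2%, 8.48% and 19.4%, in the same order.

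**Figure D1:**
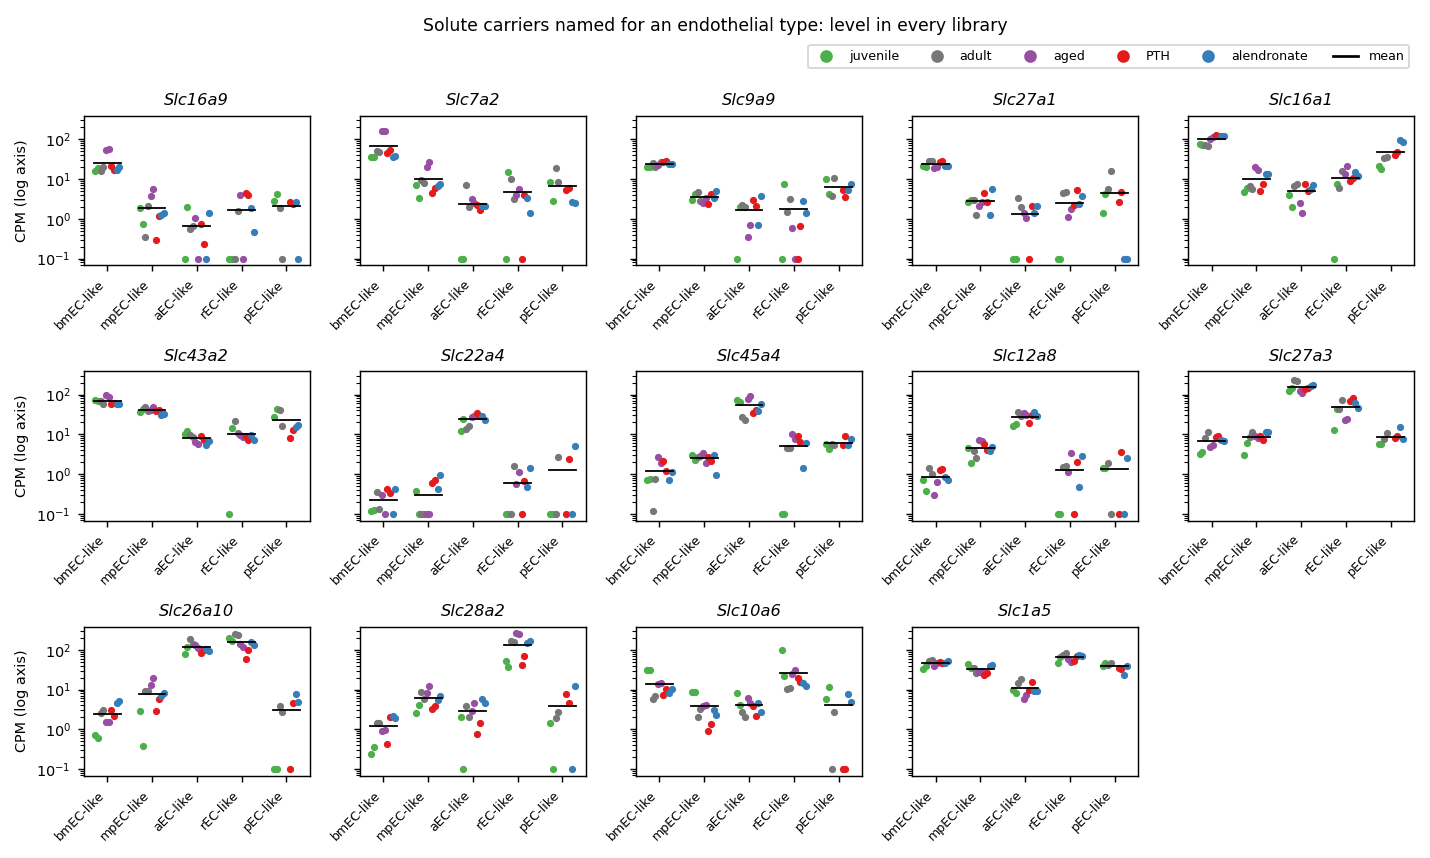
Level (CPM, log axis) of the solute carriers named for bmEC-like, mpEC-like, aEC-like and rEC-like cells in each of the 5 types. Points are libraries coloured by group, the line is the mean over libraries, and libraries without a UMI are drawn at 0.1 CPM. Slc28a2 stands at 37.0 to 259 CPM in rEC-like cells and at 12.4 CPM or below in every other type.

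In proliferating cells the leading carriers were read mostly in a subset of the cells. Of the 156 members 16 (10.3%) were called higher and 18 (11.5%) lower, against 11.8% and 9.28% of all genes. Those named by the rule were Slc25a21, a mitochondrial oxodicarboxylate carrier, by 7.23, the folate carrier Slc19a1 by 4.62, and the amino acid carriers Slc7a5 by 4.06, Slc43a1 by 3.74 and Slc38a1 by 3.64. With types taken from clusters Slc38a1 was higher by 0.60 and not called. The carbonic anhydrase gene Car1, which red cell progenitors express, led the genes of these cells, and 133 of the 629 pEC-like cells (21.1%) held a UMI of Car1, Gata1 or Klf1, against 2.17% to 3.13% of the other types. These 3 genes were chosen after the values were seen.

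The 133 cells held 102 Slc25a21 UMIs, and the 496 cells without such a UMI held 0, which allows up to 0.605% of these cells to hold a captured UMI, and says nothing of cells that express the gene below capture. That is at least 47.8-fold more per UMI in the 133 cells. Slc6a13, a carrier of GABA and taurine, was at 83 against 0 UMIs, Slc19a1 at 158 against 4, Slc7a5 at 100 against 30, Slc43a1 at 109 against 53, Slc38a1 at 76 against 16, and the urea carrier Slc14a1 at 74 against 3, a ratio of 34.7 per UMI (95% interval 11.4 to 172, counting error only). Slc7a5, Slc43a1 and Slc38a1 were thus read in both subsets, with Slc43a1 in 9.07% of the 496 cells, at 18.7 CPM. Slc25a10, the mitochondrial dicarboxylate carrier, went the other way, at 22.8 CPM in the 133 cells and 43.8 CPM in the others. Mki67, the proliferation marker, was read in 65.4% and 64.3% of the cells of the subsets, not thinned to equal depth, and stood at 143 CPM in the 133 cells against 335 CPM in the others, while Cdh5 stood at 142 against 1170 CPM. Median depth was 9719 and 5103 UMIs per cell. With cells holding a UMI of the 3 genes left out of all types, 15 members were called in pEC-like cells in place of 34. The share of all genes called in that fit is not given, so whether the fall is particular to the members cannot be told. The 133 cells held 2014228 UMIs and the 496 cells 2830659, so leaving them out also lowers the counts behind the calls. Exons of Slc25a21 overlap Pax9 on the opposite strand.

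**Figure D2:**
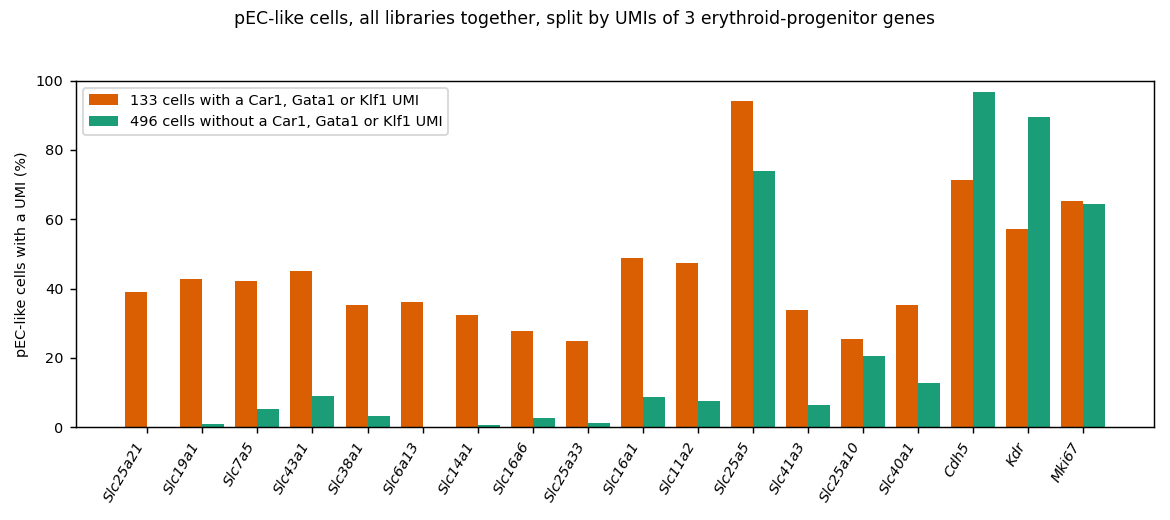
Share of pEC-like cells with at least 1 UMI of 15 solute carriers and of Cdh5, Kdr and Mki67, with all libraries pooled. Bars compare the 133 cells with and the 496 cells without a UMI of Car1, Gata1 or Klf1, not thinned to equal depth. Slc25a21 is found in 39.1% of the first and 0% of the second; Mki67 is found in 65.4% and 64.3%, but stands at 143 against 335 CPM.

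Juvenile endothelium was compared with adult endothelium first over all endothelial cells. The juvenile mice were of both sexes and the adult mice female, so age and sex cannot be told apart here. Every comparison with the adult group uses the same 2 adult libraries, all 10 libraries were fitted together, and calls are at an adjusted p under 0.05 over 16072 genes. In such sums fewer cells of a type and less RNA per cell cannot be told apart. Of the 162 members 43 (26.5%) were called higher and 28 (17.3%) lower in juvenile mice, against 20.6% and 20.7% of all genes, with a median difference of 0.08 against -0.01. By role, 10 amino acid carriers were higher and 4 lower, 10 metal carriers were higher and 4 lower, and 10 mitochondrial carriers were higher and 2 lower. Of the 23 carriers of vitamins, organic ions and lipids 3 were higher and 7 lower.

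Of the 4 amino acid and peptide carriers that the rule named for this comparison, 3 were higher in juvenile mice and Slc7a7 was lower. Slc38a2, the sodium-coupled neutral amino acid carrier SNAT2, read 333 and 321 CPM in the juvenile and 167 and 163 CPM in the adult libraries, a difference of 0.99 ± 0.04 (edgeR adjusted p = 9.36e-10). Slc15a2, the peptide carrier PEPT2, read 13.7 and 12.6 against 5.67 and 6.45 CPM, a difference of 1.12 ± 0.12 (edgeR adjusted p = 8.57e-06), and the exchanger Slc7a8 read 29.1 and 26.3 against 16.2 and 12.9 CPM (0.93 ± 0.11). Both juvenile libraries lay above both adult libraries in all 3, as the naming rule required, since it took only genes whose groups do not overlap. Within types, Slc38a2 was called in bmEC-like (1.33), mpEC-like (0.40) and aEC-like cells (0.76), and Slc15a2 in the same 3 types (1.28, 1.10 and 1.91). Without juvenile replicate 1 the mpEC-like value of Slc15a2 was 1.01, and without adult replicate 1 it was 0.95, neither called; in aEC-like cells, with 5 to 8 UMIs a library, leaving out any juvenile or adult library ended the call (1.72 to 2.13). The rise of Slc38a2 was larger in bmEC-like cells than the mean rise of the other 3 types, by 0.86 ± 0.10 (edgeR adjusted p of the interaction = 2.6e-10).

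Slc10a6 had the largest rise among the genes named for this comparison. It read 22.6 and 22.8 CPM in juvenile and 3.85 and 4.88 CPM in adult libraries, higher by 2.38 ± 0.13 (edgeR adjusted p = 1.25e-08). Within bmEC-like cells, where 48 to 270 UMIs a library were read, it stood at 31.2 and 30.6 against 5.48 and 6.63 CPM. In rEC-like cells it read 101 and 22.9 against 10.3 and 10.9 CPM, called at 2.59 with both juvenile libraries and not without juvenile replicate 1 (1.04). The zinc importer Slc39a8 read 178 and 179 against 98.7 and 95.9 CPM (0.87 ± 0.04) and was called within bmEC-like and mpEC-like cells. The mitochondrial family member Slc25a53 read 11.1 and 8.98 against 6.78 and 5.42 CPM (0.72 ± 0.16). In mpEC-like cells the zinc carrier Slc39a6 read 21.3 and 15.3 against 9.92 and 8.59 CPM, called at 0.97 but not without juvenile replicate 1 (0.71) or adult replicate 2 (0.88).

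Of 8 carriers named above by the rule for arterial or type R cells, whose cells made up less of the juvenile libraries, 6 were called lower in juvenile mice over all cells. Slc10a6 was higher, as given above, and Slc45a4 read 3.74 and 3.88 against 4.05 and 3.52 CPM, where the groups overlapped. Within aEC-like cells, however, Slc45a4 was called higher in juvenile mice by 1.41, at a mean of 70.3 against 26.2 CPM. Slc28a2 read 1.90 and 1.97 CPM against 10.6 and 9.76 in adult libraries, a difference of -2.40 ± 0.19 (edgeR adjusted p = 4.08e-07). Slc26a10 read 6.29 and 7.88 against 35.8 and 30.6 CPM (-2.23 ± 0.19), and Slc27a3 8.07 and 10.6 against 32.7 and 32.9 CPM (-1.81 ± 0.11). Slc12a8 read 2.20 and 2.09 against 5.82 and 4.34 CPM (-1.24 ± 0.21), Slc22a4 1.19 and 1.11 against 2.73 and 2.44 CPM (-1.17 ± 0.21) and Slc1a5 37.0 and 37.9 against 46.0 and 51.9 CPM (-0.38 ± 0.07). Juvenile and adult libraries did not overlap in any of the 6, which the naming rule required of Slc28a2, Slc26a10 and Slc27a3. The share of aEC-like cells moved with them, at 4.52% and 4.91% of named cells in juvenile and 12.8% and 12.1% in adult libraries. Within rEC-like cells Slc28a2 read 53.8 and 38.2 against 169 and 158 CPM, lower by 1.81 on the log2 scale (-1.81 ± 0.35, edgeR adjusted p = 0.000685), from 8 and 5 juvenile UMIs. Slc26a10 was called lower within bmEC-like (0.694 and 0.600 against 2.40 and 2.95 CPM, -2.01), mpEC-like (3.10 and 0.392 against 9.56 and 9.88 CPM, -2.44) and aEC-like cells (80.7 and 124 against 192 and 146 CPM, -0.73). In aEC-like cells, without juvenile replicate 1 (-0.47) or adult replicate 1 (-0.53) it was not called. Slc27a3 was called lower within aEC-like (130 and 155 against 238 and 221 CPM, -0.69 ± 0.13, edgeR adjusted p = 0.000243), bmEC-like (3.12 and 3.60 against 7.88 and 10.7 CPM, -1.46) and mpEC-like cells (3.10 and 6.26 against 8.86 and 12.0 CPM, -1.13). The mpEC-like value was not called without juvenile replicate 1 (-0.71) or adult replicate 2 (-0.92), and without juvenile replicate 2 it was -1.72. The values of Slc12a8, Slc22a4 and Slc1a5 lie outside the naming rule and were not recomputed under the alternatives. The same holds for values within types, beyond Slc26a10 and Slc45a4 in aEC-like, Slc27a3 in mpEC-like and Slc28a2 in rEC-like cells.

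A further 3 carriers were lower in juvenile mice over all cells. Slc12a7, the potassium-chloride cotransporter KCC4, read 31.2 and 30.5 against 57.1 and 57.7 CPM (-0.90 ± 0.06, edgeR adjusted p = 1.09e-07). Slc50a1, a sugar carrier, read 154 and 158 against 260 and 259 CPM (-0.74 ± 0.04), and Slc7a7, a cationic amino acid exchanger, 18.1 and 15.9 against 25.2 and 28.7 CPM (-0.66 ± 0.09). Juvenile and adult libraries of each stood apart, as the naming rule required. Within types, Slc50a1 was called lower in bmEC-like (-0.58), mpEC-like (-0.89) and aEC-like cells (-0.82), Slc12a7 in bmEC-like (-0.96) and mpEC-like cells (-0.77), and Slc7a7 in bmEC-like cells (-0.86). Exons of Slc7a7 overlap Oxa1l on the opposite strand. Within types the called members came to 32 higher and 21 lower in bmEC-like (of 152; 18.3% and 18.4% of all genes), 13 and 11 in mpEC-like (of 141; 11.1% and 10.9%), 7 and 4 in aEC-like (of 135; 3.98% and 4.51%) and 2 and 1 in rEC-like cells (of 123; 1.30% and 1.32%). Slc43a3, a purine nucleobase carrier, was the other member higher in rEC-like cells, at 505 and 589 against 404 and 345 CPM (0.54), and leaving out any juvenile or adult library, or PTH replicate 1, ended the call (0.35 to 0.59). DESeq2 did not call the mpEC-like values of Slc15a2, Slc39a6 and Slc27a3.

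Aged endothelium differed from adult endothelium in most members, as it did in most genes. Over all cells 63 members (38.9%) were called higher and 60 (37.0%) lower, against 36.2% and 36.6% of all genes, with a median of -0.05 against 0.00. The members' shares were thus close to the background. By role, 16 of the 24 inorganic ion carriers were higher and 5 lower (median 0.48), while 9 of the 37 mitochondrial carriers were higher and 17 lower (median -0.31). Of the 23 metal carriers 7 were higher and 12 lower, and of the 26 amino acid carriers 9 were higher and 9 lower. The markers of blood cells moved with age in these sums: 11 haematopoietic genes summed to 3780 to 8960 CPM in the aged and 664 to 861 CPM in the adult libraries over all cells, with none at 0, and within types to 89.1 to 148 against 41.3 to 52.7 CPM. With the cells that carried markers of other cell types left out, 62 members were higher and 61 lower over all cells.

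Both ATP/ADP translocases of mitochondria named by the rule fell. Slc25a5, the ATP/ADP translocase ANT2, read 152 and 166 CPM in aged and 518 and 539 CPM in adult libraries, a difference of -1.73 ± 0.05 (edgeR adjusted p = 8.51e-12). It fell in all 4 types tested, by 1.77 (bmEC-like), 1.35 (mpEC-like), 1.48 (aEC-like) and 1.22 (rEC-like) on the log2 scale. The fall in bmEC-like cells exceeded the mean of the other 3 types by -0.31 ± 0.08 (edgeR adjusted p of the interaction = 0.00173). Slc25a4 (ANT1) read 142 and 141 against 311 and 322 CPM in bmEC-like cells (-1.16 ± 0.05, edgeR adjusted p = 2.53e-22). Aged and adult libraries did not overlap for either translocase, as the naming rule required. Slc25a37, the mitochondrial iron importer mitoferrin-1, went the other way, at 45 and 60.9 against 27.0 and 24.2 CPM (1.05 ± 0.11, edgeR adjusted p = 1.76e-06), and was called higher in all 4 types (1.10 to 1.77). The 6 haemoglobin and red cell genes summed to 1460 to 7090 CPM in the aged and 2170 to 2220 in the adult libraries over all cells, and within types to 312 to 420 against 139 to 232 CPM, with at most 2 of the 6 at 0 in a library, and their part in the Slc25a37 value was not tested. Exons of Slc25a37 overlap genes of the opposite strand. Over all cell barcodes, not only endothelial cells, 6 members had over 50% of their UMIs in the aged libraries. Slc25a37 held 53.4% there and Slc4a1, the red cell anion exchanger, 79.0%.

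The 3 metal carriers described above as higher in sinusoidal cells fell. Copper importer Slc31a1 read 38.5 and 34.2 CPM in aged and 106 and 108 CPM in adult libraries (-1.56 ± 0.06, edgeR adjusted p = 8.81e-11). Slc39a8 read 32.8 and 33.7 against 98.7 and 95.9 CPM (-1.55 ± 0.05, edgeR adjusted p = 1.01e-11), and ferroportin Slc40a1 11.6 and 14.0 against 31.9 and 31.5 CPM (-1.31 ± 0.08). In all 3 the aged libraries lay below the adult ones, as the naming rule required, and the rule also took the largest differences. The share of bmEC-like cells moved with them, at 24.1% and 23.2% of named cells in aged and 61.0% and 63.3% in adult libraries. Within bmEC-like cells Slc39a8 read 82.7 and 95 against 142 and 137 CPM (-0.65 ± 0.07, edgeR adjusted p = 8.6e-11), and within mpEC-like cells 29.0 and 27.1 against 65.2 and 60.1 CPM (-1.16). In rEC-like cells it was -1.29 from 7 to 10 UMIs a library, and without adult replicate 1 (-1.53), adult replicate 2 (-0.94), aged replicate 1 (-1.06) or either alendronate library (-1.31) it was not called, nor by DESeq2.

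In aEC-like cells Slc39a8 read 1.47 and 1.85 against 11.5 and 14.5 CPM, a difference of -2.91 ± 0.45, and Slc40a1 2.21 and 1.85 against 13.8 and 6.89 CPM, -2.36 ± 0.47 (edgeR adjusted p = 6.29e-07 and 4.63e-05). The counts were small, 4 and 5 Slc39a8 UMIs in the aged and 20 and 21 in the adult libraries. With types taken from clusters both reversed, to 1.40 for Slc39a8 and 0.12 for Slc40a1, so the arterial value depends on which cells are called arterial. The fall of Slc39a8 in aEC-like cells exceeded the mean of the other types by -1.89 ± 0.48 (edgeR adjusted p of the interaction = 0.00575). Zinc carrier Slc39a1 read 228 and 217 against 432 and 645 CPM over all cells (-1.27 ± 0.13) and was called lower in all 4 types (-1.06 to -0.58), where adult replicate 2 stood above adult replicate 1 each time. The fatty acid carrier Slc27a1 read 6.97 and 6.30 against 15.8 and 17.3 CPM (-1.32 ± 0.10) and was called lower in bmEC-like cells (-0.60). Within mpEC-like cells Slc40a1 read 17.1 and 16.9 against 37.6 and 46.4 CPM (-1.29 ± 0.18). Zinc carrier Slc39a14 went up over all cells, from 9.71 and 9.65 to 19.4 and 19.4 CPM (1.00 ± 0.09), and was called within mpEC-like cells (0.57).

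Some carriers of arterial and type R cells were higher in aged libraries and others were not. Slc45a4 read 18.9 and 20.3 CPM against 4.05 and 3.52 in adult libraries, a difference of 2.37 ± 0.15 (edgeR adjusted p = 8.78e-09), Slc28a2 35.7 and 35.7 against 10.6 and 9.76 CPM (1.81 ± 0.12), and Slc6a6 752 and 802 against 315 and 291 CPM (1.36 ± 0.07). All aged libraries lay above the adult ones, as the naming rule required. The rEC-like and aEC-like shares moved with them, the latter at 32.6% and 31.1% against 12.8% and 12.1%. Within aEC-like cells Slc45a4 still read 82.0 and 97.8 against 28.3 and 24.1 CPM (1.77 ± 0.17, edgeR adjusted p = 7.88e-12). The adult mean there, 26.2 CPM, was the lowest of the 5 groups, and the juvenile mean was 70.3 CPM. Within rEC-like cells Slc28a2 read 274 and 267 against 169 and 158 CPM (0.72 ± 0.13, edgeR adjusted p = 6.85e-06), a smaller difference than over all cells. Slc6a6 was called higher in all 4 types, by 0.48 to 0.91. Slc27a3, in contrast, read 32.1 and 31.8 against 32.7 and 32.9 CPM over all cells and fell within aEC-like cells, at 128 and 114 against 238 and 221 CPM (-0.92 ± 0.09, edgeR adjusted p = 7.14e-12). Slc26a10 was higher over all cells (0.71) but fell within rEC-like (147 and 127 against 243 and 239 CPM, -0.82 ± 0.13) and aEC-like cells (139 and 115 against 192 and 146 CPM, -0.43 ± 0.11). Slc1a5 read 27.9 and 30.5 against 46.0 and 51.9 CPM over all cells (-0.74 ± 0.07) and 60.5 and 52.6 against 72.0 and 85.4 CPM in rEC-like cells (-0.47 ± 0.19). These aged values of Slc27a3, Slc26a10 and Slc1a5 were picked after they were seen.

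Within types, 55 members were called higher and 37 lower in aged bmEC-like cells (36.2% and 24.3%, against 31.8% and 32.7% of all genes), 39 and 27 in mpEC-like (27.7% and 19.1%, against 30% and 30.2%), 30 and 34 in aEC-like (22.2% and 25.2%, against 27.1% and 28.2%) and 26 and 21 in rEC-like cells (21.1% and 17.1%, against 24.5% and 22.3%). Slc7a2 stood at 149 and 148 CPM in aged and 47.4 and 47.4 CPM in adult bmEC-like cells (1.65 ± 0.07, edgeR adjusted p = 1.06e-22). The rise of Slc7a2 there exceeded the mean of the other types by 1.66 ± 0.33 (edgeR adjusted p of the interaction = 4.43e-05). The other types did not move alike. The aged mean of Slc7a2 was 24.7 against 9.04 CPM in adult mpEC-like cells, and 5.18 against 6.7 CPM in rEC-like cells. The rise was thus not particular to bmEC-like cells. The bicarbonate cotransporter Slc4a4 read 30 and 26.6 against 7.43 and 6.88 CPM in bmEC-like cells (1.98 ± 0.18).
In aEC-like cells Slc12a2, the sodium-potassium-chloride cotransporter NKCC1, read 126 and 132 against 49.6 and 50.3 CPM (1.37 ± 0.12), more than the mean of the other types by 0.74 ± 0.17 (edgeR adjusted p of the interaction = 0.00163).
In mpEC-like cells the lactate carrier Slc16a1 read 21.1 and 17.7 against 7.09 and 6.01 CPM (1.54 ± 0.28), more than the mean of the others by 1.71 ± 0.36 (edgeR adjusted p of the interaction = 0.000765). Its aged mean was also above the adult mean in bmEC-like (98.5 against 67.7 CPM) and rEC-like cells (18.3 against 10.7 CPM). In aEC-like cells it was below, at 2.03 against 7.25 CPM. Aged and adult libraries were separate for Slc7a2 and Slc4a4 in bmEC-like, Slc12a2 in aEC-like and Slc16a1 in mpEC-like cells, as the naming rule required. The amino acid carrier Slc7a5 rested on 1 library in mpEC-like cells, at 18.5 and 4.32 against 1.77 and 2.58 CPM (2.35), and was not called without aged replicate 1 (0.99). In rEC-like cells Slc7a5 had 14 and 21 UMIs in the aged and 0 and 1 in the adult libraries, a ratio of 14.9 per UMI (95% interval 2.5 to 605, counting error only), and Slc25a25, an ATP-magnesium carrier, 19 and 17 against 3 and 0 UMIs, a ratio of 5.11 (1.61 to 25.9). Neither was called without the adult library that held none of its UMIs, where the differences were 2.74 and 1.33 in place of 3.63 and 2.22. Without the other adult library they were 6.68 and 6.72.

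**Figure D3:**
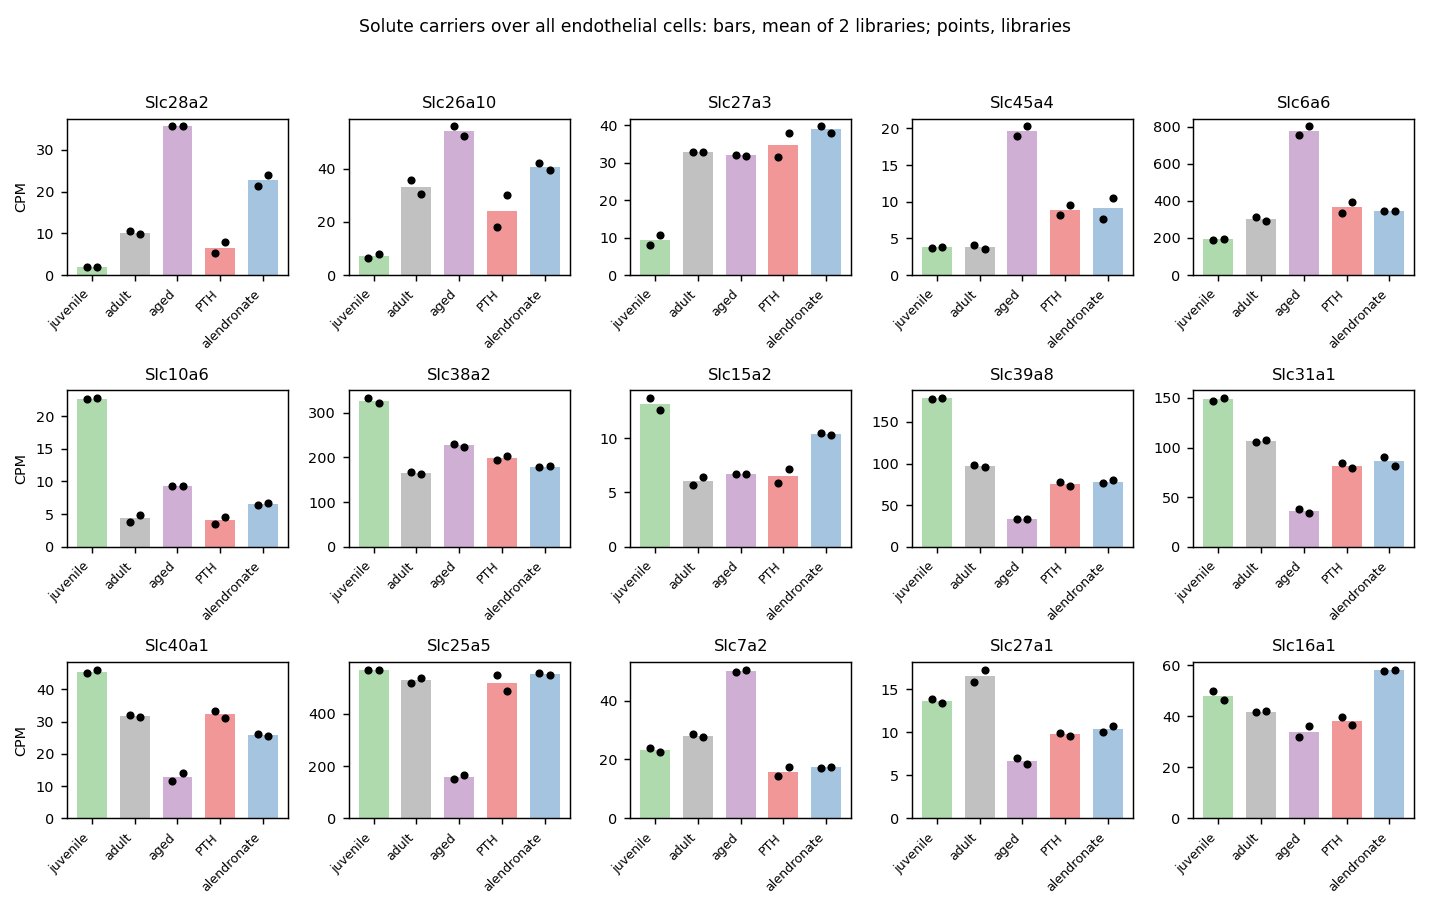
Level over all endothelial cells (CPM, axes from 0) of 15 solute carriers named for a comparison of groups. Bars are means of the 2 libraries of a group and points are libraries. Slc28a2 runs from 1.90 CPM in a juvenile to 35.7 CPM in the aged libraries, and Slc25a5 from 152 CPM in an aged library to over 500 CPM in both adult libraries.

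PTH moved fewer members than age did, and falls outnumbered rises. Over all cells 19 members (11.7%) were called higher and 30 (18.5%) lower than in adult mice, against 13.4% and 12.6% of all genes, with a median of -0.01 against 0.00. By role, 7 of the 23 carriers of vitamins, organic ions, choline and lipids were higher and 2 lower. Of the 24 inorganic ion carriers 3 were higher and 6 lower, and of the 23 metal carriers 1 and 5. Of the 37 mitochondrial carriers 2 were higher and 5 lower, and of the 26 amino acid and peptide carriers 2 and 5. Of the 10 Golgi and endoplasmic reticulum carriers 1 was higher and 3 lower, and of the 16 carriers of sugars and monocarboxylates 3 and 3.

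The falls led with carriers of sinusoidal cells. Slc7a2 read 14.3 and 17.4 CPM in PTH and 28.6 and 27.6 CPM in adult libraries (-0.79 ± 0.08, edgeR adjusted p = 8.17e-06), Slc27a1 9.95 and 9.57 against 15.8 and 17.3 CPM (-0.77 ± 0.10), and Slc9a9 8.31 and 9.53 against 15.4 and 13.2 CPM (-0.65 ± 0.11). PTH libraries lay below adult libraries in all 3, as the naming rule required. The share of bmEC-like cells moved with them, at 35.7% and 31.0% against 61.0% and 63.3% of named cells. Within bmEC-like cells none of the 3 was called, with differences of 0.05 for Slc7a2, -0.05 for Slc27a1 and 0.29 for Slc9a9. The riboflavin carrier Slc52a3 read 19.5 and 20.4 against 32.6 and 32.3 CPM over all cells (-0.69 ± 0.06, edgeR adjusted p = 3.15e-06) and was lower in bmEC-like cells too, at 21.8 and 20.3 against 39.4 and 37.0 CPM (-0.88 ± 0.12, edgeR adjusted p = 2.02e-07). The glutamine carrier Slc1a5 read 32.0 and 33.4 against 46.0 and 51.9 CPM over all cells (-0.57 ± 0.07) and was called in none of the 4 types (-0.28 to -0.24). Slc39a1 read 394 and 348 against 432 and 645 CPM (-0.54 ± 0.13); it was -0.22 without adult replicate 2, still called, and -0.46 without PTH replicate 2, not called.

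The rises were small and several rested on a library. Slc41a3, a magnesium carrier, read 13.0 and 11.4 against 8.25 and 7.86 CPM (0.58 ± 0.15), not called without adult replicate 2 (0.54) or PTH replicate 1 (0.50). The myo-inositol carrier Slc5a3 read 43.8 and 39.5 against 30.4 and 27.4 CPM (0.51 ± 0.09, edgeR adjusted p = 0.00113), was called within aEC-like cells (0.60) and kept its call without each library; its exons overlap Mrps6 on the same strand. Slc20a1, the phosphate carrier PiT1, read 18.7 and 22.7 against 15.3 and 15.1 CPM (0.48), the vitamin C carrier Slc23a2 25.1 and 28.1 against 21.5 and 18.5 CPM (0.43), and Slc22a17, a lipocalin receptor of the organic cation family, 15.3 and 16.5 against 12.1 and 12.4 CPM (0.39). None of these 3 was called without PTH replicate 2 (0.29, 0.31 and 0.31), and Slc22a17 was not called without adult replicate 1 (0.38) or adult replicate 2 (0.41) either. PTH libraries lay above adult libraries in each of the 5, as the naming rule required. Apart from Slc5a3 none was called within a type. Within bmEC-like, mpEC-like, aEC-like and rEC-like cells Slc41a3 differed by 0.67, 0.55, -0.37 and 0.64, and Slc20a1 by 0.2, 0.15, 0.18 and 0.49. In the same order Slc23a2 differed by 0.27, 0.43, 0.18 and 0.0, and Slc22a17 by 0.22, 0.33, -0.08 and 0.37. The mpEC-like cells moved with these rises, at 38.8% and 35.9% of named cells with PTH against 16.9% and 15.5% in adult libraries. Over the 10 libraries the other 4 had higher medians in mpEC-like than in bmEC-like cells, 12.1 against 4.54 CPM for Slc41a3, 28.2 against 10.1 for Slc20a1, 32.3 against 23.2 for Slc23a2 and 17.1 against 11.6 for Slc22a17, and the part of the mix in the rises was not tested. DESeq2 did not call Slc41a3 or Slc22a17. Exons of Slc20a1 overlap genes of the opposite strand. Slc4a1, picked after its values were seen, was at 0.290 and 0.254 CPM in PTH and 4.05 and 5.75 in adult libraries, where the 6 red cell genes summed to 130 to 148 and 2170 to 2220 CPM, and their part in the result was not tested.

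In type R cells both leading carriers fell with PTH, and 8 of the 10 markers that had named these cells were lower too. Slc28a2 read 42.5 and 69.6 CPM in PTH and 169 and 158 CPM in adult rEC-like cells, from 19 and 108 against 115 and 102 UMIs, a difference of -1.38 ± 0.17 (edgeR adjusted p = 1.47e-07). Slc26a10 read 60.4 and 99.3 against 243 and 239 CPM, a difference of -1.43 ± 0.16 (edgeR adjusted p = 8.14e-09). Both PTH libraries lay below both adult libraries in each gene, as the naming rule required, and the calls held without each library in turn. The 10 markers of rEC-like cells, as a plain share of the UMIs of these cells, summed to 4650 and 6070 CPM with PTH and 8500 and 7990 CPM in adult libraries, and 8 of the 10 were lower and 2 higher without overlap. Aqp7, one of the 8, read 150 and 284 against 387 and 323 CPM on the scale of the test. Of the PTH and adult libraries PTH replicate 1 was the lowest for Slc28a2, Slc26a10, Aqp7 and the sum, and the part of the markers in the result was not tested. Slc26a10 also fell in aEC-like cells, at 88.0 and 101 against 192 and 146 CPM (-0.81 ± 0.12, edgeR adjusted p = 2.38e-06), and the fall in rEC-like cells exceeded the mean of the other 3 types by -0.81 ± 0.24 (edgeR adjusted p of the interaction = 0.0324). The translocase Slc25a4 was higher in PTH rEC-like cells, at 662 and 614 against 479 and 505 CPM (0.36 ± 0.10, edgeR adjusted p = 0.0157), and not called without adult replicate 1 (0.32) or adult replicate 2 (0.38) or with types from clusters (0.27); against the mean of the other types it differed by 0.41 ± 0.08 (edgeR adjusted p of the interaction = 0.000371). Together 2 members were higher and 4 lower in rEC-like cells, 1.63% and 3.25% of 123, against 3.14% and 2.90% of all genes.

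Within the other types PTH changed few members. In bmEC-like cells 4 were higher and 4 lower (2.63% each of 152, against 4.83% and 3.70% of all genes), and Slc16a1 led at 121 and 113 CPM against 68.5 and 66.9 (0.77 ± 0.07, edgeR adjusted p = 4.28e-11). The rise of Slc16a1 there exceeded the mean of the other types by 0.89 ± 0.25 (edgeR adjusted p of the interaction = 0.0371). Slc39a8 read 177 and 170 against 142 and 137 CPM in bmEC-like cells (0.31 ± 0.06), although over all cells it was called lower. Slc7a7 read 14.8 and 16.5 against 23.3 and 27.9 CPM there (-0.67), not called without PTH replicate 2 (-0.79). In aEC-like cells 4 were higher and 7 lower (2.96% and 5.19% of 135, against 2.95% and 3.38%). Slc22a4 read 36.6 and 29.9 against 13.8 and 16.5 CPM (1.07 ± 0.23, edgeR adjusted p = 0.00133; 0.94 and not called without adult replicate 1), and the lysosomal carrier Slc46a3 14.8 and 11.1 against 26.5 and 28.2 CPM (-1.18 ± 0.25; -0.88 and not called without PTH replicate 2). The bicarbonate carrier Slc4a8 read 14.8 and 10.4 against 1.73 and 7.58 CPM (1.38), with 0.60 without adult replicate 1, 1.22 without PTH replicate 1 and 1.74 without PTH replicate 2, none called, and 2.70 without adult replicate 2, called; DESeq2 did not call it.

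In mpEC-like cells 1 member was higher and 5 were lower with PTH, 0.709% and 3.55% of 141, against 4.67% and 4.78% of all genes. Slc50a1 read 176 and 174 CPM in PTH and 241 and 255 CPM in adult cells (-0.50 ± 0.07, edgeR adjusted p = 1.09e-06). The libraries did not overlap, as the naming rule required. Slc35a4, of a Golgi nucleotide sugar carrier family, read 45.8 and 54.8 against 68.0 and 70.4 CPM (-0.41), and was not called without adult replicate 1 (-0.44), adult replicate 2 (-0.39) or PTH replicate 1 (-0.33); its exons overlap Apbb3 on the opposite strand. Slc29a1 read 630 and 656 against 582 and 567 CPM (0.16), and leaving out any PTH or adult library ended the call (0.13 to 0.19). DESeq2 called neither Slc35a4 nor Slc29a1 there.

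Alendronate was compared with the same adult libraries. Over all cells 22 members (13.6%) were called higher and 20 (12.3%) lower, against 12.2% and 10.5% of all genes, with medians of -0.01 and 0.00. The members' shares were close to the background. By role, 5 of 16 carriers of sugars and monocarboxylates were higher and 1 lower. Of 24 inorganic ion carriers 4 were higher and 1 lower, although the median of that list was -0.07. Of 23 metal carriers 2 were higher and 5 lower, and of 26 amino acid and peptide carriers 4 and 6.

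Slc28a2 had the largest rise among the genes named for this comparison, at 21.4 and 24.0 CPM with alendronate and 10.6 and 9.76 CPM in adult libraries (1.15 ± 0.12, edgeR adjusted p = 2.05e-05). Within rEC-like cells it read 145 and 163 against 169 and 158 CPM, where the groups overlapped (-0.09 ± 0.13, edgeR adjusted p = 0.86). The share of rEC-like cells moved with the sum over all cells, at 19.2% and 19.8% against 7.60% and 7.54%. Slc16a1 read 57.7 and 58.4 against 41.7 and 42.1 CPM over all cells (0.47 ± 0.06), 116 and 117 against 68.5 and 66.9 CPM in bmEC-like (0.78 ± 0.06, edgeR adjusted p = 1.64e-12) and 14.3 and 14.3 against 7.09 and 6.01 CPM in mpEC-like cells (1.11 ± 0.30). Both alendronate libraries lay above both adult ones each time, as the naming rule required. In mpEC-like cells, with 14 to 32 UMIs a library, leaving out any alendronate or adult library ended the call (1.01 to 1.24). With types from clusters the mpEC-like value was 0.60 and not called, nor was it called by DESeq2.

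The peptide carrier Slc15a2 read 10.5 and 10.3 against 5.67 and 6.45 CPM over all cells (0.78 ± 0.12, edgeR adjusted p = 0.000492) and 11.3 and 12.4 against 5.37 and 6.63 CPM in bmEC-like cells (0.98 ± 0.18, edgeR adjusted p = 7.88e-05). In mpEC-like cells it read 11.2 and 11.8 against 4.96 and 6.01 CPM (1.07), and leaving out any alendronate or adult library ended the call (0.93 to 1.21), as did DESeq2 and types from clusters (0.68). The groups were separate in all 3 sums, as the naming rule required. Slc25a25 read 12.3 and 12.8 against 8.35 and 7.26 CPM over all cells (0.69 ± 0.12), and in rEC-like cells it had 35 and 35 UMIs against 3 and 0, a ratio of 6.95 per UMI (95% interval 2.28 to 34.5, counting error only); without adult replicate 2 or alendronate replicate 1 it was not called there, nor by DESeq2. The rEC-like difference of Slc25a25 was 2.77, and 7.25 without adult replicate 1, which held its 3 adult UMIs. Exons of Slc25a25 overlap Naif1 on the opposite strand. Slc20a1 read 20.1 and 20.3 against 15.3 and 15.1 CPM (0.41), not called without adult replicate 2 (0.40), alendronate replicate 1 (0.42) or alendronate replicate 2 (0.41).

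Falls with alendronate again included sinusoidal carriers. Slc7a2 read 17.0 and 17.6 against 28.6 and 27.6 CPM over all cells (-0.70 ± 0.08, edgeR adjusted p = 3.35e-05) and Slc27a1 10.0 and 10.8 against 15.8 and 17.3 CPM (-0.67 ± 0.09). Both were called lower within bmEC-like cells (-0.39 each), and bmEC-like cells made up 48.0% and 47.1% against 61.0% and 63.3% of named cells. The amino acid carriers Slc43a2 (33.5 and 33.0 against 49.0 and 43.0 CPM, -0.47 ± 0.06), Slc7a7 (19.7 and 20 against 25.2 and 28.7 CPM, -0.44 ± 0.08) and the lysosomal glutamine carrier Slc38a7 (6.95 and 7.27 against 9.82 and 10.5 CPM, -0.52 ± 0.10) were lower as well. Alendronate libraries lay below adult ones in all 5, as the naming rule required. In bmEC-like cells Slc38a7 (8.09 and 7.75 against 10.1 and 12.8 CPM, -0.52) was not called without adult replicate 2 (-0.34), alendronate replicate 1 (-0.55) or alendronate replicate 2 (-0.49), and the lysosomal sialic acid carrier Slc17a5 (14.8 and 14.6 against 18.5 and 23.9 CPM, -0.52) not without adult replicate 2 (-0.33). DESeq2 called neither in bmEC-like cells, nor Slc38a7 over all cells.

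Slc39a1 shows how an adult library set a value. It read 344 and 360 CPM with alendronate and 432 and 645 CPM in adult libraries (-0.61 ± 0.13, edgeR adjusted p = 0.00357), and -0.30, still called, without adult replicate 2. Within aEC-like cells it was -0.69 (185 and 207 against 245 and 395 CPM), within rEC-like -0.55 (186 and 214 against 216 and 374 CPM) and within mpEC-like cells -0.45 (291 and 327 against 351 and 498 CPM). It was called lower within bmEC-like cells too, at 539 and 541 against 560 and 792 CPM (-0.32 ± 0.07), a value outside the naming rule and not recomputed without a library. Adult replicate 2 was the higher adult library each time, and without it the aEC-like, rEC-like and mpEC-like differences were -0.31, -0.10 and -0.18 and none was called. Without adult replicate 1 they were -0.89 in rEC-like and -0.69 in mpEC-like cells, and without alendronate replicate 1 the rEC-like value was -0.47 and not called. DESeq2 did not call the mpEC-like and rEC-like values.

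Within types alendronate gave 11 members higher and 12 lower in bmEC-like (7.24% and 7.89% of 152, against 10.3% and 7.91% of all genes), 9 and 6 in mpEC-like (6.38% and 4.26% of 141, against 5.78% and 3.51%), 4 and 5 in aEC-like (2.96% and 3.70% of 135, against 2.89% and 2.27%) and 1 and 4 in rEC-like cells (0.813% and 3.25% of 123, against 1.24% each). Slc26a10 fell in both of its cell types, at 155 and 129 against 243 and 239 CPM in rEC-like (-0.76 ± 0.13, edgeR adjusted p = 8.79e-05) and 107 and 95.7 against 192 and 146 CPM in aEC-like cells (-0.75 ± 0.11, edgeR adjusted p = 9.86e-06). The groups did not overlap in either, as the naming rule required. The 10 rEC-like markers summed to 7300 and 6960 CPM with alendronate against 8500 and 7990 CPM, and 6 were lower and 2 higher without overlap. The part of the markers in the result was not tested. In aEC-like cells Slc45a4 read 40.0 and 57.1 against 28.3 and 24.1 CPM (0.88 ± 0.19), 0.78 without adult replicate 2 and 0.60 without alendronate replicate 2, neither called. Slc25a44, a mitochondrial carrier of branched-chain amino acids, read 17.7 and 13.3 against 9.23 and 4.13 CPM there (1.16); it was 1.89 and called without adult replicate 1, and 0.75 without adult replicate 2 and 0.94 without alendronate replicate 1, neither called. In mpEC-like cells ferroportin Slc40a1 read 26.8 and 21.1 against 37.6 and 46.4 CPM (-0.79 ± 0.17), not called without adult replicate 2 (-0.64), without alendronate replicate 2 (-0.63) or with types from clusters (-0.33).

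**Figure D4:**
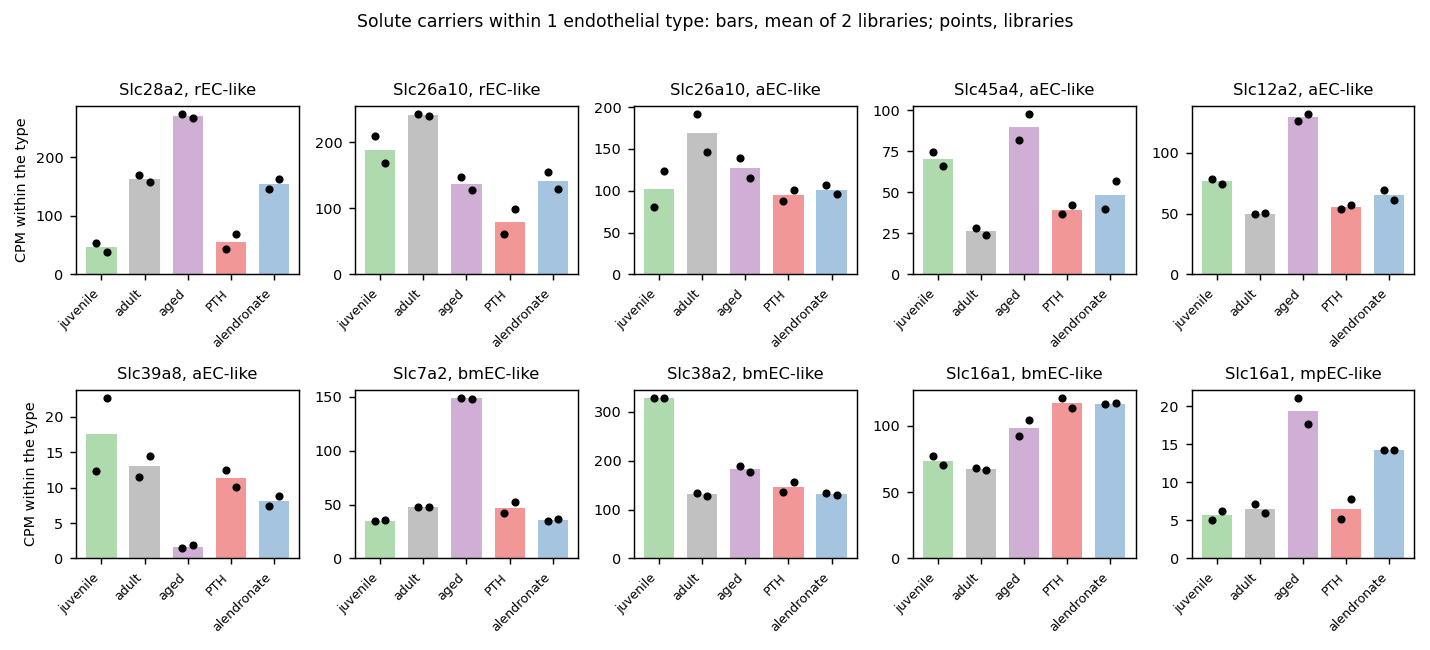
Level within a single endothelial type (CPM of that type, axes from 0) for 8 solute carriers. Bars are means of the 2 libraries of a group and points are libraries. In rEC-like cells Slc28a2 stands at 42.5 and 69.6 CPM with PTH against 145 and 163 CPM with alendronate, and in bmEC-like cells Slc7a2 stands near 148 CPM in the aged libraries against 47.4 CPM in both adult libraries.

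PTH and alendronate, which act on bone in different ways, were also set against each other over all cells. Of the 162 members 20 (12.3%) were higher with PTH and 24 (14.8%) lower, against 13.0% and 13.7% of all genes, with medians of -0.02 and 0.00. Among members with at least 10 CPM in the higher group Slc28a2 differed most, at 5.21 and 7.94 CPM with PTH and 21.4 and 24.0 CPM with alendronate (-1.69 ± 0.13, edgeR adjusted p = 9.54e-07). Slc26a10 read 18.2 and 30 against 42.0 and 39.5 CPM (-0.68 ± 0.15), -0.44 without PTH replicate 1 and -1.17 without PTH replicate 2, called both times. The lactate carrier Slc16a1 and the amino acid and peptide carriers Slc15a2 and Slc7a8 were lower with PTH, although over their whole role 5 amino acid and peptide carriers were higher and 4 lower, with Slc16a1 at 39.8 and 36.8 against 57.7 and 58.4 CPM (-0.61 ± 0.06), Slc15a2 at 5.89 and 7.14 against 10.5 and 10.3 CPM (-0.64 ± 0.12) and Slc7a8 at 11.6 and 11.5 against 17.7 and 17.2 CPM (-0.60 ± 0.12). Slc52a3 read 19.5 and 20.4 against 30.4 and 28.5 CPM (-0.55 ± 0.06). The PTH and alendronate libraries did not overlap in any of the 6, as the naming rule required. The mix of cells differed between the treatments too, with mpEC-like cells at 38.8% and 35.9% of named cells with PTH against 11.3% and 10.9% with alendronate, beside the rEC-like and bmEC-like shares given above, and its part in these results was not tested.

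Higher with PTH was the nucleoside carrier Slc29a1, at 450 and 455 against 337 and 321 CPM (0.46 ± 0.04, edgeR adjusted p = 1.94e-06). Slc41a3 read 13.0 and 11.4 against 7.65 and 7.22 CPM (0.69 ± 0.15) and Slc22a17 15.3 and 16.5 against 11.2 and 10.1 CPM (0.59 ± 0.10). Slc2a8, an intracellular glucose carrier, read 22.9 and 20.9 against 14.6 and 16.7 CPM (0.47), not called without alendronate replicate 1 (0.38), and Slc17a5 18.6 and 19.4 against 14.9 and 14.6 CPM (0.38), not called without PTH replicate 2 (0.33) or alendronate replicate 2 (0.36), nor by DESeq2. Slc38a9, the arginine sensor of lysosomes, read 28.0 and 26.2 against 21.4 and 19.8 CPM (0.38 ± 0.08). PTH libraries lay above alendronate libraries in all 6, as the naming rule required. Slc29a1, like Slc41a3 and Slc22a17, had a higher median in mpEC-like cells (550 CPM over the 10 libraries) than in bmEC-like (470), aEC-like (197) and rEC-like cells (144), and the mpEC-like share moved with it. Within mpEC-like cells the mean of Slc29a1 was 643 CPM with PTH and 431 with alendronate, and within bmEC-like cells 481 and 452. In aEC-like cells it was 244 and 191, and in rEC-like cells 182 and 149. PTH against alendronate was not tested within types. Exons of Slc29a1 and Slc38a9 overlap genes of the opposite strand. The treatments differ in dose and schedule, PTH being given daily and alendronate every other day, so the comparison is of these regimens.

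Over all types, the test of whether a group effect in a type differed from the mean of the other 3 types called 11 differences among members for juvenile, 26 for aged, 12 for PTH and 7 for alendronate mice, each over 4 types. These are 1.76%, 4.17%, 1.92% and 1.12% of the members' tests, against 2.59%, 7.11%, 1.92% and 0.958% of the tests of all genes.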

How the data were processed

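The deposited files hold raw UMI counts per gene and cell barcode for 10 libraries. Per the labels and the study's methods the authors made these counts from 10x Chromium 3′ reads with UMI-tools 1.1.2, STAR 2.7.10a on mm10 and featureCounts 2.0.3; the annotation release and strand setting are not given in the sources used here. From there, cells were filtered and named as the report states, and UMIs were summed per library and type, with sums of at least 20 cells kept, so the 2 aged pEC-like sums (11 and 17 cells) were left out. Genes with UMIs in the aged tables only (2017 genes, no member) were left out.

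Sums were tested with edgeR 4.0.16 (quasi-likelihood test, TMM scaling, filterByExpr, Benjamini-Hochberg adjustment over all genes tested) in R 4.3.3, and DESeq2 1.42.0 was an alternative. The scripts were tested on simulated data with known changes. Cell steps used Python 3.11.15, numpy 2.4.6, pandas 2.3.3 and scanpy 1.11.5 (clusters for the alternative only). No doublet caller was run. Replicates of a group differed by more than sampling noise (chi-square per gene 2.13 to 7.99), so none was merged. Same-numbered libraries of different groups did not deviate together (correlations -0.103 to 0.0292), so the numbers do not pair the samples.

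Named genes were Slc28a2, Slc39a8 and the members with the largest called differences: up to 5 higher in each type (mean of at least 20 CPM, above the mean of the other types in every library), up to 6 in each direction for each group comparison over all cells and up to 2 in each direction within a type (at least 10 CPM in the higher group, groups that do not overlap). A gene that this rule names is not reported here. Others are said to be picked after their values were seen. The members and gene lists were chosen with earlier results of these data known. Intervals and limits from counts cover counting error only. Exon overlaps were read from GENCODE M21, where 48 of the 162 members overlap another gene.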

Additional observations from a re-analysis of the deposited data

Results flagged for a closer look

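Of 20 levels tested within a type, each over all its libraries, 1 had a library far from the others, and chance flags about 1 in 20 groups. Slc10a6 in rEC-like cells stood at 97.0 CPM in juvenile replicate 1, a gap of 0.766 of the whole range to the next library, from 15 UMIs.

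Of 60 effects within a type that were tested against the mean effect of the other 3 types, 9 differed by edgeR's quasi-likelihood test with adjustment over all genes. The 60 were named for large called differences in the same data, so their share is no measure of how often effects differ. By group, 1.12% to 4.17% of the tests of all members were called, and 0.958% to 7.11% of those of all genes. In juvenile bmEC-like cells Slc38a2 differed by 0.86 ± 0.10 (SE, log2, edgeR adjusted p = 2.6e-10). In aged mice the differences were 1.66 ± 0.33 for Slc7a2 and -0.31 ± 0.08 for Slc25a5 in bmEC-like cells, 1.71 ± 0.36 for Slc16a1 in mpEC-like cells, and 0.74 ± 0.17 for Slc12a2 and -1.89 ± 0.48 for Slc39a8 in aEC-like cells. With PTH they were 0.89 ± 0.25 for Slc16a1 in bmEC-like cells, and 0.41 ± 0.08 for Slc25a4 and -0.81 ± 0.24 for Slc26a10 in rEC-like cells. The Slc39a8 value rests on 4 and 5 aged UMIs, and its direction within aEC-like cells turned when types were taken from clusters. With age the mean of Slc7a2 was higher in mpEC-like cells too, and that of Slc16a1 in bmEC-like cells too.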

How the results depend on the processing

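With 2 libraries a group, calls within a type rest on few UMIs, and where a value changed the cause was not tested. For the counts of called members in this section the shares of all genes under the same setting are not given. Whether a changed count is particular to the members therefore cannot be told. Scaling edgeR by DESeq2 size factors left all 141 single-gene calls and all 30 counts of called members within 1.5 times. DESeq2's own test called fewer: 42 members in place of 71 for juvenile and 24 in place of 44 for PTH against alendronate over all cells, and within types 30, 5 and 8 in bmEC-like cells (juvenile, PTH, alendronate), 13, 43, 1 and 4 in mpEC-like cells (juvenile, aged, PTH, alendronate), 6 in aEC-like cells with PTH, and 29 and 1 in rEC-like cells (aged, alendronate); its counts of differences between types were 7 for juvenile and 4 for alendronate. DESeq2 lost 19 single-gene calls, among them those named as such beside their values above. Without a filter on low counts there were 11 in mpEC-like cells with PTH and 6, 6 and 5 in aEC-like cells (juvenile, PTH, alendronate). With types from clusters there were 16 in pEC-like cells, 41 and 17 in mpEC-like cells (juvenile, PTH), 3 in rEC-like cells with alendronate and 17 juvenile differences between types, and in aged aEC-like cells Slc39a8 reversed to 1.40 and Slc40a1 to 0.12; 9 single-gene calls were lost, among them juvenile Slc15a2 in aEC-like (1.55) and Slc43a3 in rEC-like cells (0.40) and alendronate Slc38a7 in bmEC-like cells (-0.39). A larger lead of the best type gave 3 in mpEC-like cells with PTH, and fitting only the 2 groups gave 1 in juvenile rEC-like cells. Thinning to 2000 in place of 1000 UMIs per cell moved 16 of 21 shares of cells with a UMI by over 1 SD. Chosen after seeing the data, leaving out the deepest cells gave 20 and leaving out cells with a Car1, Gata1 or Klf1 UMI gave 15 in pEC-like cells.

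Leaving out each library in turn gave 40 to 46 members called in bmEC-like, 13 to 16 in mpEC-like, 41 to 45 in aEC-like, 28 to 31 in rEC-like and 31 to 37 in pEC-like cells. Over all cells it gave 51 to 76 for juvenile, 108 to 124 for aged, 35 to 51 for PTH, 26 to 46 for alendronate and 26 to 44 for PTH against alendronate, both 26 without alendronate replicate 2. For juvenile, aged, PTH and alendronate in turn, it gave 38 to 55, 73 to 94, 3 to 9 and 11 to 23 in bmEC-like cells, 15 to 25, 53 to 62, 2 to 9 and 7 to 17 in mpEC-like cells, 6 to 13, 50 to 68, 5 to 12 and 4 to 10 in aEC-like cells, 1 to 4, 25 to 47, 4 to 7 and 2 to 5 in rEC-like cells, and 4 to 13, 14 to 27, 4 to 14 and 2 to 9 differences between types. The lowest count for aged rEC-like cells came without adult replicate 1 (25) and was 26 without adult replicate 2.

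The replicate numbers share only a number, so the samples are not paired. With the number as a replicate block the counts over all cells were 66, 122, 50, 42 and 42, and in mpEC-like cells with PTH 10 in place of 6; Slc29a1 there was the single named gene to lose its call. Crossing the PTH numbers in the block, chosen after seeing the data, gave 70, 123, 51, 42 and 44.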

Other observations

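The shares of UMIs here were counted over all cell barcodes, not only the endothelial cells. Of 162 members 6 had over 50% of their UMIs in the aged libraries: Slc4a1 (79.0%), Slc2a3 (60.4%), Slc16a10 (57.8%), Slc25a21 (56.8%), Slc25a37 (53.4%) and Slc38a5 (51.4%). Over all endothelial cells the aged mean was above the adult mean for Slc4a1 (9.42 against 4.9 CPM), Slc2a3 (7.22 against 2.16) and Slc25a37 (52.9 against 25.6). It was below the adult mean for Slc25a21 (0.673 against 1.37 CPM), Slc38a5 (1.1 against 2.79) and Slc16a10 (1.71 against 2.1). The sum of 11 haematopoietic genes over all endothelial cells was 3780 to 8960 CPM in aged and 664 to 861 CPM in adult libraries, and its part in the 6 shares was not tested.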
